A study of Glycine max with 8 samples.

Results

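Transcripts of 5 soybean (Glycine max) clock genes were followed in leaves: E2, the soybean GIGANTEA, its gene copy, J, the soybean EARLY FLOWERING 3 (ELF3), and the LUX ARRHYTHMO genes LUX1 and LUX2. They were taken by their published locus numbers, and all 5 were found among the 31785 genes listed. E2 is locus Glyma.10G221500.Wm82.a4.v1 on chromosome 10 and its copy is Glyma.20G170000.Wm82.a4.v1 on chromosome 20. J is Glyma.04G050200.Wm82.a4.v1 on chromosome 4, LUX1 is Glyma.12G060200.Wm82.a4.v1 on chromosome 12 and LUX2 is Glyma.11G136600.Wm82.a4.v1 on chromosome 11. The RefSeq gene table (assembly Glycine_max_v4.0) also has E2 on chromosome 10, a GIGANTEA gene with the synonym GmGIb on chromosome 20 and ELF3A on chromosome 4. That table does not carry the locus numbers, so the match is by symbol and chromosome.

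RNA of mature leaves was sequenced from the line OX5 (4 libraries) and from wild type, WT (4 libraries). Plants of both lines were grown with sufficient phosphorus and harvested at R6, when seeds fill the pods. The labels do not name the gene altered in OX5, the promoter that drives it or the number of clones behind the line. The files hold no gene names, so the tissue was not checked against leaf markers. Nor do they say whether libraries came from separate plants, so p-values measure only the spread between these libraries, which may be technical. They give no time of day for any harvest. Differences in level at all hours, in the phase of a daily rhythm and in harvest hour between the lines cannot be told apart here. Whether libraries of the same line were harvested at the same hour is not given either.

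GIGANTEA is a large plant-specific protein of the circadian clock whose transcript peaks late in the day. In Arabidopsis it joins a light-sensing ubiquitin ligase that removes repressors of CONSTANS, and so links day length to flowering. In soybean, active alleles of E2 delay flowering. The evening complex is a repressor of transcription that acts around dusk and in the night. ELF3 is its scaffold, LUX is the GARP-type transcription factor that binds DNA, and ELF4 is its other partner in Arabidopsis. In soybean, J and the LUX proteins repress the legume flowering repressor E1, and plants that lack J flower late in short days.

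The libraries held 17536942 to 19139497 reads in OX5 and 18768431 to 19156866 reads in WT, counted from the steps of the deposited FPKM values (fragments per kilobase, corrected for library depth). OX5 libraries stood apart in pairs. Across the 30424 genes tested, the log2 values correlated at 0.982 between OX5 replicates 1 and 2 and at 0.978 between OX5 replicates 3 and 4. Between the pairs the correlations were 0.900 to 0.938, against 0.924 to 0.974 between WT libraries. With WT libraries, OX5 replicate 3 correlated at 0.950 to 0.965 and OX5 replicate 4 at 0.929 to 0.943. Both thus correlated more closely with every WT library than with OX5 replicates 1 and 2. OX5 replicates 1 and 2 correlated with WT libraries at 0.881 to 0.925. These are correlations across genes, which are not independent replicates. Of the genes tested, 729 passed the limma test between the lines, which is 2.40%.

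J, LUX1 and LUX2 were about 2-fold higher in OX5 leaves than in WT leaves, and for each of them every OX5 library lay above every WT library. E2 averaged 0.714 of its WT level in OX5, and its copy averaged 1.11 of its WT level, with overlap between the lines in both cases. In whole leaves, fewer cells of a type and less RNA per cell cannot be told apart. None of the 5 genes passed the test across all genes: 0 of 5 had a limma adjusted p under 0.05, where the background was 2.40% of genes. At an unadjusted p under 0.05 the number was 4 of 5, where 21.7% of all genes tested reached it. The same counts, 0 and 4, came from limma-voom on the recovered reads, with 1.43% of genes called.

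**Figure D1:**
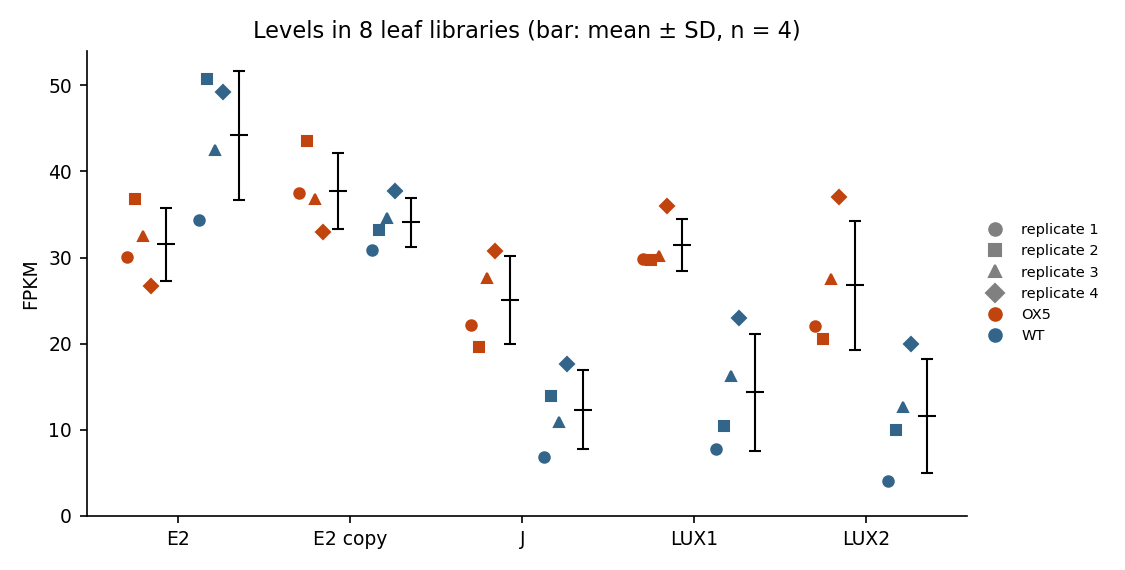
FPKM (vertical axis) of each gene in the 4 OX5 libraries (red) and the 4 WT libraries (blue), with the replicate number given by the symbol and the mean ± SD beside the points. J, LUX1 and LUX2 lie higher in every OX5 library than in any WT library, while the lines overlap for E2 and its copy.

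E2 had 30.1, 36.8, 32.6 and 26.7 FPKM in OX5 replicates 1 to 4, against 34.4, 50.7, 42.4 and 49.2 FPKM in WT replicates 1 to 4. The lines overlapped through a single library of WT, replicate 1, which lay below OX5 replicate 2. E2 averaged 31.5 ± 4.26 FPKM in OX5 and 44.2 ± 7.46 FPKM in WT (SD, n = 4 each). The log2 fold change of OX5 over WT, on the scale of log2(FPKM + 1), was −0.47 (SE 0.15, 95% interval −0.81 to −0.12, limma adjusted p = 0.127). It was −0.55 without OX5 replicates 1 and 2 and −0.38 without OX5 replicates 3 and 4.

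The E2 copy had 37.5, 43.6, 36.9 and 32.9 FPKM in OX5 replicates 1 to 4, against 30.9, 33.2, 34.6 and 37.7 FPKM in WT replicates 1 to 4. The highest WT library, replicate 4, lay above every OX5 library but replicate 2, so the lines were intermixed. It averaged 37.7 ± 4.38 FPKM in OX5 and 34.1 ± 2.85 FPKM in WT (SD, n = 4 each). The log2 fold change was 0.14 (SE 0.12, 95% interval −0.13 to 0.40, limma adjusted p = 0.522), an interval that holds changes in either direction. It was 0.03 without OX5 replicates 1 and 2 and 0.24 without OX5 replicates 3 and 4.

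J, which encodes the ELF3 scaffold, had 22.2, 19.6, 27.6 and 30.8 FPKM in OX5 replicates 1 to 4, against 6.85, 13.9, 10.9 and 17.6 FPKM in WT replicates 1 to 4. The lowest OX5 library lay just above the highest WT library. J averaged 25.1 ± 5.09 FPKM in OX5 and 12.3 ± 4.57 FPKM in WT (SD, n = 4 each), a ratio of the means of 2.03. The log2 fold change was 1.02 (SE 0.26, 95% interval 0.43 to 1.61, limma adjusted p = 0.0724). It was 1.25 without OX5 replicates 1 and 2 and 0.78 without OX5 replicates 3 and 4, and neither of these fits passed the threshold.

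LUX1, a DNA-binding subunit, had 29.9, 29.7, 30.2 and 36.0 FPKM in OX5 replicates 1 to 4, against 7.74, 10.4, 16.2 and 22.9 FPKM in WT replicates 1 to 4. OX5 replicates 1 to 3 were nearly level, and the WT libraries were spread widely beneath them. LUX1 averaged 31.5 ± 3.03 FPKM in OX5 and 14.3 ± 6.74 FPKM in WT (SD, n = 4 each), a ratio of the means of 2.197. The log2 fold change was 1.19 (SE 0.28, 95% interval 0.55 to 1.82, limma adjusted p = 0.0608). LUX1 passed the threshold when WT replicate 4, its highest WT library, was left out, at 1.44 on the log2 scale (limma, adjusted p = 0.0352, where 1.10% of genes were called); over its 20 alternative fits the adjusted p ran from 0.0114 to 0.146. With library quality weights 4 of the 5 genes passed, as did 31.2% of all genes tested. Without OX5 replicates 1 and 2 the log2 fold change was 1.26, and without OX5 replicates 3 and 4 it was 1.11.

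LUX2, the other DNA-binding subunit, had 22.1, 20.5, 27.5 and 37.0 FPKM in OX5 replicates 1 to 4, against 4.00, 9.90, 12.7 and 19.9 FPKM in WT replicates 1 to 4. WT replicate 4 reached almost to the lowest OX5 library, replicate 2. LUX2 averaged 26.8 ± 7.47 FPKM in OX5 and 11.6 ± 6.61 FPKM in WT (SD, n = 4 each), a ratio of the means of 2.30. The log2 fold change was 1.28 (SE 0.39, 95% interval 0.39 to 2.17, limma adjusted p = 0.112), the widest interval of the 5 genes. It was 1.56 without OX5 replicates 1 and 2 and 1.00 without OX5 replicates 3 and 4.

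**Figure D2:**
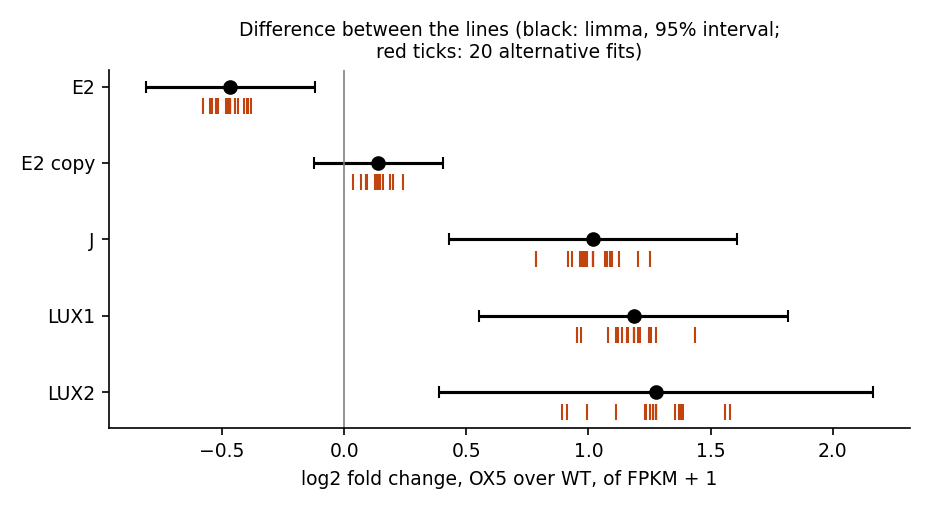
Log2 fold change of OX5 over WT (horizontal axis) for each gene, as a black point with its 95% interval from limma, and as red ticks under 20 alternative fits. The intervals of J, LUX1 and LUX2 lie above 0, that of E2 lies below 0 and that of the E2 copy holds 0.

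Counting error was small beside most of these spreads. The fewest reads behind any of the values were the 253 of LUX2 in WT replicate 1, where 4.00 FPKM has an exact 95% Poisson interval of 3.52 to 4.52 FPKM. The most were the 6096 of the E2 copy in OX5 replicate 2. Such intervals cover counting error only. For LUX1, OX5 replicates 1 to 3 lay within the intervals of one another, such as 28.1 to 31.8 FPKM in replicate 1.

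Every OX5 library lay above every WT library at 8.87% of the genes tested, and at 3 of these 5 genes. Every OX5 library lay below every WT library at 5.35% of genes and at none of the 5, and either was seen at 14.2%. Ranked by signed value from lowest to highest, the log2 fold changes of J, LUX1 and LUX2 lay above those of 98.4%, 99.1% and 99.3% of all genes tested. That of E2 lay above those of 10.03% of genes, near the low end, and that of its copy above those of 61.8%. The median absolute log2 fold change of all genes tested was 0.23. The median over the 5 genes was 1.02, against 0.04 over all genes tested. Of the 524 genes with a log2 fold change of at least 1, 348 missed the adjusted threshold, as J, LUX1 and LUX2 did.

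**Figure D3:**
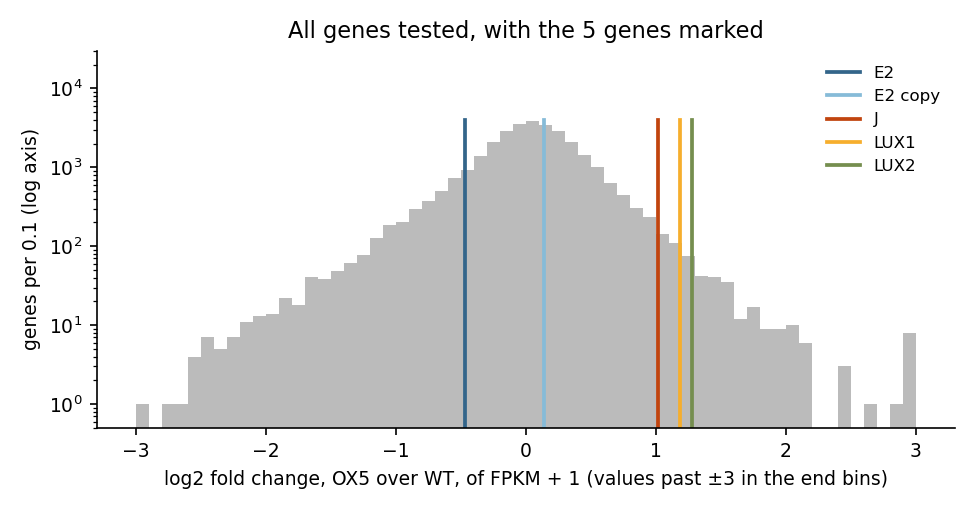
Number of genes (vertical axis, log scale) by log2 fold change of OX5 over WT (horizontal axis) for all 30424 genes tested, with the 5 genes as vertical lines. J, LUX1 and LUX2 stand in the upper tail, E2 lies toward the low end and its copy within the bulk.

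The spread between WT libraries was wide for the evening complex genes. From the lowest to the highest library, J spanned 1.57-fold in OX5 and 2.57-fold in WT, LUX1 spanned 1.21-fold in OX5 and 2.96-fold in WT, and LUX2 spanned 1.81-fold in OX5 and 4.98-fold in WT. The SD of the log2 values of J was 0.28 in OX5 and 0.53 in WT. For LUX1 it was 0.13 in OX5 and 0.64 in WT, and for LUX2 it was 0.37 in OX5 and 0.87 in WT. The median SD over all genes tested was 0.26 in OX5 and 0.21 in WT. Within WT, the SDs of J, LUX1 and LUX2 were larger than those of 90.8%, 94.2% and 97.7% of genes. In WT the GIGANTEA pair varied less than the evening complex genes, while in OX5 LUX1 varied least of the 5. The SDs were 0.19 for E2 and 0.16 for its copy in OX5, against 0.25 for E2 and 0.12 for its copy in WT. Whether the spread of any of these genes differs between the lines was not tested.

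J, LUX1 and LUX2 shared their lowest and highest library in each line. WT replicate 1 was the lowest and WT replicate 4 the highest WT library for all of them, and OX5 replicate 2 was the lowest and OX5 replicate 4 the highest OX5 library. The same order at the ends of WT was seen at 20.8% of the genes tested, and that at the ends of OX5 at 9.63%. Both were seen at 604 genes, or 1.99%. These orders were taken from the values of J, LUX1 and LUX2 after they were seen, so the shares are not rates expected by chance. E2 and its copy also had their lowest WT value in replicate 1. In OX5 they were the other way round from the evening complex genes, lowest in replicate 4 and highest in replicate 2.

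**Figure D4:**
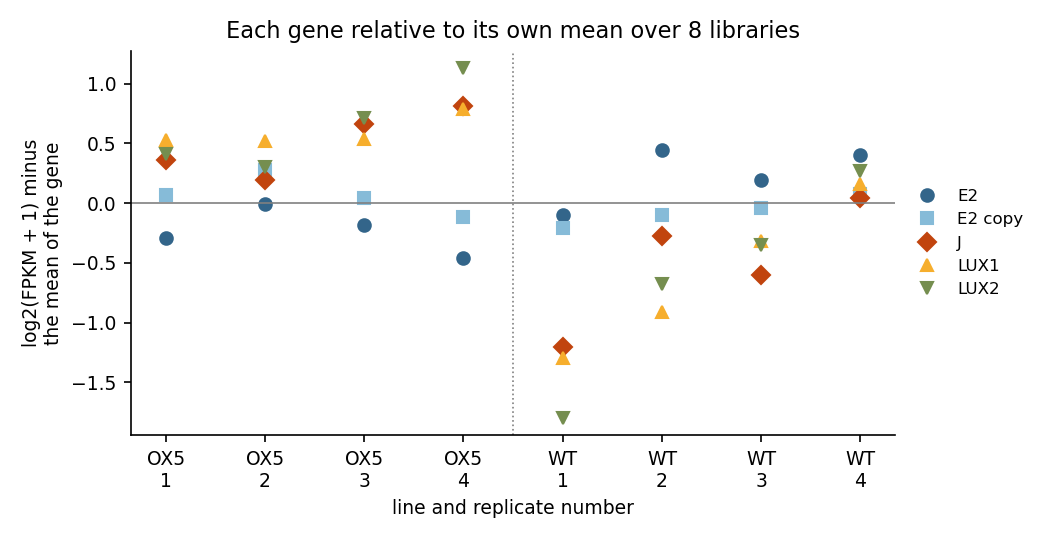
Log2(FPKM + 1) of each gene minus its own mean over the 8 libraries (vertical axis), by line and replicate (horizontal axis). J, LUX1 and LUX2 lie close together from library to library, below their mean in WT replicates 1 to 3 and above it in every OX5 library, while E2 is at or below its mean in every OX5 library.

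FPKM is per length, so levels were set side by side between genes on that scale. Orders and sums across genes therefore depend on the gene lengths used. Whether those lengths match the transcripts in leaves was not checked. The lengths implied by the FPKM steps were 5429 bases for E2, 7278 for its copy, 3698 for J, 1829 for LUX1 and 3330 for LUX2. In OX5 the order by mean level was E2 copy, E2, LUX1, LUX2 and J, and all 4 neighbouring pairs in that order overlapped in range. In WT the order was E2, E2 copy, LUX1, J and LUX2. There the GIGANTEA pair stood clear of the evening complex genes: the lowest library of the E2 copy, at 30.9 FPKM, lay above the highest of LUX1, at 22.9 FPKM. The other neighbours in WT overlapped. The mean level of J was above that of 84.1% of listed genes in OX5 and of 68.8% in WT, and that of E2 was above 87.8% in OX5 and 91.8% in WT.

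In FPKM, the order within the GIGANTEA pair was opposite in the lines. The ratio of E2 to its copy in FPKM was 0.803, 0.846, 0.883 and 0.811 in OX5 replicates 1 to 4, against 1.11, 1.53, 1.23 and 1.31 in WT replicates 1 to 4. In FPKM, E2 was thus below its copy in every OX5 library and above it in every WT library. Before division by gene length, the ratio in reads was 0.599, 0.631, 0.659 and 0.605 in OX5 replicates 1 to 4. In WT replicates 1 to 4 it was 0.831, 1.14, 0.915 and 0.974. The lower ratio in OX5 thus does not depend on the lengths, but the side of equal levels does. As a share of the summed FPKM of both genes, E2 made up 44.5% to 46.9% in OX5 and 52.7% to 60.4% in WT. The sum itself was 69.3 ± 8.54 FPKM in OX5 and 78.3 ± 9.62 FPKM in WT (SD, n = 4 each), with overlap between the lines.

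On the log2 scale with 1 FPKM added to each gene, the ratio of E2 to its copy averaged −0.25 ± 0.06 in OX5 and 0.35 ± 0.19 in WT (SD, n = 4 each). The difference was −0.61, with a two-sided exact permutation p of 0.0286, the smallest that 4 libraries against 4 can give. Adjusted over the 2 gene pairs compared it was 0.0571 (exact permutation test), which misses 0.05. Unless both pairs gave the smallest p, neither could pass 0.05 after this adjustment, so the miss was set by the number of libraries. With 1 library left out the difference ran from −0.67 to −0.52. How reads shared by near-identical copies were counted is not given in the sources used here, so the split between E2 and its copy is uncertain to that extent.

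The ratio of LUX1 to LUX2 did not separate the lines. It was 1.35, 1.45, 1.10 and 0.972 in OX5 replicates 1 to 4, against 1.94, 1.05, 1.28 and 1.15 in WT replicates 1 to 4. The log2 ratio averaged 0.26 ± 0.26 in OX5 and 0.35 ± 0.32 in WT (SD, n = 4 each; exact permutation p = 0.714, also 0.714 after adjustment over the 2 pairs). The sum of both LUX genes was 51.9, 50.2, 57.7 and 73.0 FPKM in OX5 replicates 1 to 4, against 11.7, 20.3, 28.9 and 42.9 FPKM in WT replicates 1 to 4. The sums of the lines did not overlap, as for each gene alone. In WT the LUX sum was below that of the GIGANTEA pair in every library, and among the OX5 libraries it was above it in replicate 4, at 73.0 FPKM against 59.7 FPKM.

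**Figure D5:**
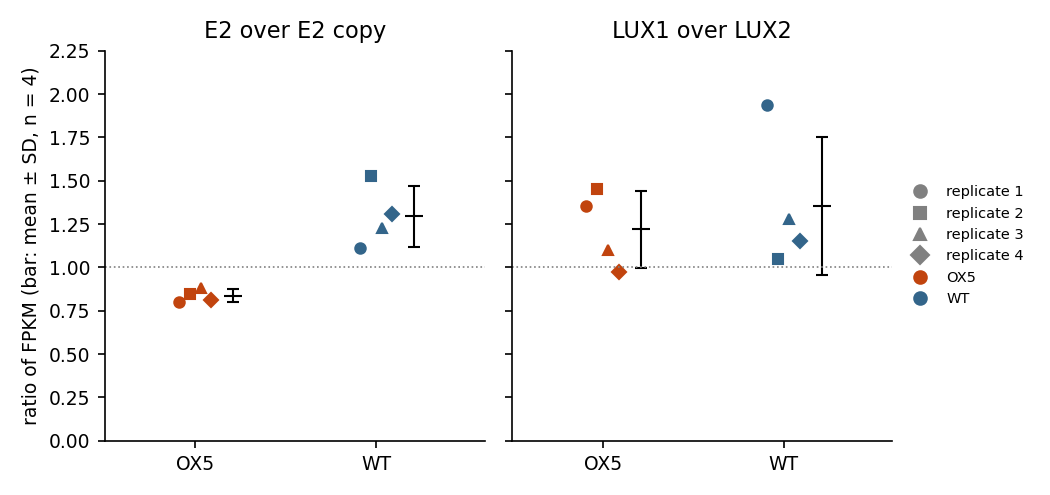
Ratio of FPKM (vertical axis) of E2 to its copy and of LUX1 to LUX2, in the OX5 libraries (red) and the WT libraries (blue), with the mean ± SD beside the points and a dotted line at equal levels. For E2 over its copy the OX5 libraries lie below the line and the WT libraries above it, while for LUX1 over LUX2 the lines overlap.

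Likeness between genes was taken as the root-mean-square difference of their log2 values over the 8 libraries, after subtraction of the mean of each gene, where 0 is an identical profile. J differed from LUX1 by 0.29 and from LUX2 by 0.31, and LUX1 differed from LUX2 by 0.26, where the median gene tested differed from J by 0.67 and from LUX2 by 0.89. Among 30423 other genes, LUX1 was at rank 5 and J at rank 9 in the list of LUX2. LUX2 was at rank 21 and J at rank 29 in the list of LUX1, and LUX1 and LUX2 were at ranks 55 and 90 in the list of J. E2 and its copy differed by 0.33 and were less alike by rank. The copy was at rank 8636 in the list of E2, closer than the median gene at 0.41. E2 was at rank 18838 in the list of the copy, farther than the median gene at 0.27. The profile of E2 was far from those of J, LUX1 and LUX2, at 0.81, 0.91 and 1.02.

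The gene closest to E2 was Glyma.20G227200, which differed from it by 0.05 and averaged 7.32 ± 0.799 FPKM in OX5 and 10.2 ± 1.68 FPKM in WT (SD, n = 4 each). The next was Glyma.11G087500, at 0.07, with 43.7 ± 7.58 FPKM in OX5 and 56.8 ± 8.38 FPKM in WT (SD, n = 4 each). The closest to J was Glyma.10G269400, at 0.14, with 12.7 ± 2.68 FPKM in OX5 and 7.05 ± 2.53 FPKM in WT (SD, n = 4 each). The second closest to J, also at 0.14, is numbered outside the annotation. None of these passed the limma test, and the files and the RefSeq table give no names for them.

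Other clock and photoperiod genes were taken from a list of 17 published locus numbers, which the files and the RefSeq table do not pair with names, so the list is given by its counts. Of the 17, 11 were among the genes listed and 6 were not. In OX5, 2 of the 11 fell and 0 rose, with limma, where 1.01% and 1.38% of all genes tested did so. An unadjusted p under 0.05 was reached by 5 of the 11, where 21.7% of all genes tested reached it. The median log2 fold change of the 11 was −0.23, against 0.04 over all genes tested, and the values ran from −1.56 to 1.66. The highest was that of Glyma.16G151000, singled out after its values were seen, with 74, 96, 1 and 1 reads in OX5 replicates 1 to 4, against 1, 0, 0 and 0 reads in WT replicates 1 to 4. It rested on OX5 replicates 1 and 2, and over 20 alternative fits its log2 fold change ran from 0.11 (without these) to 4.23 (limma-voom).

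The 2 loci that fell were lower in every OX5 library than in any WT library. Glyma.16G017400 had 1.91, 2.41, 2.203 and 1.86 FPKM in OX5 replicates 1 to 4, against 12.4, 9.56, 7.81 and 4.52 FPKM in WT replicates 1 to 4. OX5 over WT gave −1.56 on the log2 scale (SE 0.25, adjusted p = 0.0230 in limma). The call held in 13 of 20 alternative fits, with adjusted p-values of 0.00172 to 0.0869. Glyma.19G260900 had 0.408, 0.892, 0.422 and 0.373 FPKM in OX5 replicates 1 to 4, against 3.69, 2.92, 3.16 and 1.53 FPKM in WT replicates 1 to 4. OX5 over WT gave −1.30 (SE 0.21, adjusted p = 0.0245 in limma). Its log2 fold change ran from −2.42 (limma-voom) to −1.19 over 19 alternative fits. The call held in 13 of 19 fits, with adjusted p-values of 0.00179 to 0.101.

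At both loci WT replicate 1 was the highest and WT replicate 4 the lowest WT library, the reverse of J, LUX1 and LUX2. The same held for 6 of the 11 loci of the list, a count made after the values were seen. The share of all genes tested with that order was not counted, so whether 6 of 11 is unusual cannot be told. The part of these differences between libraries in the difference between the lines was not tested.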

How the data were processed

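The authors deposited 1 table of FPKM values with 1 column for each of the 8 libraries, and 0 columns were left unused. Per the submitters' processing notes, the tools were HISAT2 2.1.0, TopHat2, Bowtie2 2.2.3, HTSeq 0.6.0 and CASAVA, with no role given. Neither build nor strand setting is stated in the sources used here. A row without a name or values was left out. The locus numbers carry the suffix Wm82.a4.v1, from which chromosome numbers were read.

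Whole reads were recovered from the FPKM steps for 100% of 31785 genes, where 99% of genes lay within 0.00759 reads of whole counts. Counts were accepted only when close to whole reads, so this closeness is in part built in. Gene lengths then came out whole as well, at a depth chosen to bring them closest to whole bases. Lines were compared in limma 3.58.1 (R 4.3.3), with a variance trend, on log2(FPKM + 1) for 30424 genes averaging 0.5 FPKM or more. P-values were adjusted by Benjamini-Hochberg over all of them, with a threshold of 0.05. This scale understates changes of low genes. Ratios of gene copies were compared by two-sided exact permutation over all 70 assignments of the line labels. The alternatives were other pseudocounts, filters, scalings, variance models and weights, a replicate block, limma-voom and fits without single libraries or OX5 pairs. The scripts were tested on simulated data. Python 3.11.15 with numpy 2.4.6, scipy 1.17.1 and pandas 2.3.3 was used.

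All 5 genes were described by rule, with the 2 profiles closest to E2 and the 2 closest to J. The genes and lists were chosen with earlier results of these data known. Every pair of libraries differed by more than counting noise, so each was counted once.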

Additional observations from a re-analysis of the deposited data

Results flagged for a closer look

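LUX1 in OX5 replicate 4 stood apart from the other OX5 libraries, at 36.0 FPKM against 29.7 to 30.2 FPKM in OX5 replicates 1 to 3. It was the 1 lone extreme value among 14 groups of 4 values examined. Chance flags about 1 in 20 groups, so a single flag among 14 is unremarkable. It is still above every WT library, as are the other OX5 values of LUX1. Without OX5 replicate 4 the log2 fold change of LUX1 was 1.12 (limma adjusted p = 0.0918, within 0.0114 to 0.146 over the 20 alternative fits).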

How the results depend on the processing

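The log2 fold changes of the 5 genes kept their sign in all 20 alternative fits, and 95 of the 100 values stayed on the same side of the threshold. Library quality weights brought 4 genes past it, with log2 fold changes of −0.43 for E2, 0.93 for J, 0.97 for LUX1 and 0.91 for LUX2, but they also called 9504 genes, or 31.2% of those tested. With 1 library left out, LUX1 ran from 0.95 to 1.44 and passed without WT replicate 4. The number of genes called, 729 in the main fit, was 57 at an adjusted p of 0.01, 435 with limma-voom, 242 without OX5 replicates 1 and 2, 5503 without OX5 replicates 3 and 4, and 58 to 761 with 1 library left out. The log2 ratio of LUX1 to LUX2, OX5 minus WT, changed sign when 1 library was left out (−0.19 to 0.061; 0.0078 without OX5 replicate 4 and 0.061 without WT replicate 1), and that of E2 to its copy did not. For these shifts the cause was not tested. A replicate block left 56 genes called, and 0 of the 5. Its SE was 0.15 for E2, 0.14 for its copy, 0.20 for J, 0.22 for LUX1 and 0.24 for LUX2. In the main fit the SE was 0.15, 0.12, 0.26, 0.28 and 0.39 in the same order. Libraries with the same number deviated from their line means with correlations of −0.06 to 0.13 across genes. Libraries with different numbers gave −0.17 to 0.11. Such weak, overlapping correlations cannot decide whether libraries were paired. Blocked, the E2 ratio kept its difference of −0.61 with an exact permutation p of 0.125, the smallest that 4 pairs can give.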
